A study of Mus musculus with 4 samples.

Results

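DNA repair and damage checkpoint genes were followed in sorted cells of mouse gliomas driven by PDGF-B, a growth factor that makes glial progenitors divide. The set held 41 genes chosen by name, and 40 of them were measured among 19937 genes. Xrcc2 was not analysed here. Each gene was read from the array probe set that the platform annotation gives to that gene alone, taking the one with the highest mean over the 4 arrays. Of the 40 genes, 15 act in homologous recombination, 8 in the Fanconi anaemia pathway, 4 are checkpoint kinases, 3 act in mismatch repair, 5 in end joining, 4 in single-strand break repair, and 1 reverses alkylation directly.

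The study set late-onset gliomas labelled high-grade against early-onset gliomas labelled low-grade, with 2 arrays a group. Each late-onset sample came from 1 tumour, here tumour 1 and tumour 2, and each early-onset sample was a pool of cells from 2 tumours, here pool 1 and pool 2. All samples shared the C57/Bl6 background and PDGF-B/EGFP overexpression from a retrovirus given to embryos on day 14, and cells were sorted for the EGFP reporter. Tumours were collected when symptoms began, and the ages are not given in the sources used here. The virus marks whichever cells it infects, and no untransduced brain cells were analysed here. Values are log2 probe set summaries made with RMA, a method that corrects background and scales arrays to one distribution. Signals of different probe sets are not comparable with each other, so levels are compared only between arrays.

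The 8 markers of oligodendrocyte progenitors, the cell type these tumours resemble, stood between 11.19 and 13.24 log2 units in late-onset cells and between 11.50 and 13.71 in early-onset cells. Markers of microglia and macrophages were present as well: all 15 fell in late-onset cells, at a median log2 fold change of -3.77. Their signals summed to 1986 and 3493 linear units in the tumours, against 39683 and 35129 in the pools. In such bulk samples, fewer cells of a type and less RNA per cell cannot be told apart. The part of these markers in the results on repair genes was not tested.

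Homologous recombination repairs double-strand breaks by copying the sister chromatid, and it works mainly in the S and G2 phases, when a sister is at hand. The Fanconi proteins unhook crosslinks between strands and hand the break to recombination. End joining ligates broken ends in any phase, mismatch repair corrects replication errors, and the checkpoint kinases halt the cycle while damage persists. Many recombination, Fanconi and checkpoint genes are known to be transcribed most in dividing cells.

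The repair genes that passed the test were all higher in late-onset cells. Of 40 genes, 14 rose and 0 fell at a Benjamini-Hochberg adjusted p under 0.05 in limma, whereas 6.59% of all genes were called higher and 8.12% called lower. At an unadjusted p under 0.05, 23 were higher and 0 lower. The median log2 fold change was 0.39, against -0.01 for all genes. Late-onset arrays stood wholly above early-onset arrays for 31 of the 40 genes, which was so for 28.5% of all genes. They stood wholly below for 1 gene, Mgmt, against 30.4% of all genes, so 32 of 40 had separate groups, against 58.9% of all genes. The 14 called genes had log2 fold changes from 0.63 to 1.43, and the other 26 ranged from -0.15 to 0.71. With 2 arrays a group the counts depend on the arrays kept. Fewer repair genes, and fewer of all genes, were called higher when either pool or either tumour was left out. The drop was larger without a pool, for the repair genes and for all genes. The median of the repair genes stayed between 0.32 and 0.47 in these 4 fits.

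**Figure D1:**
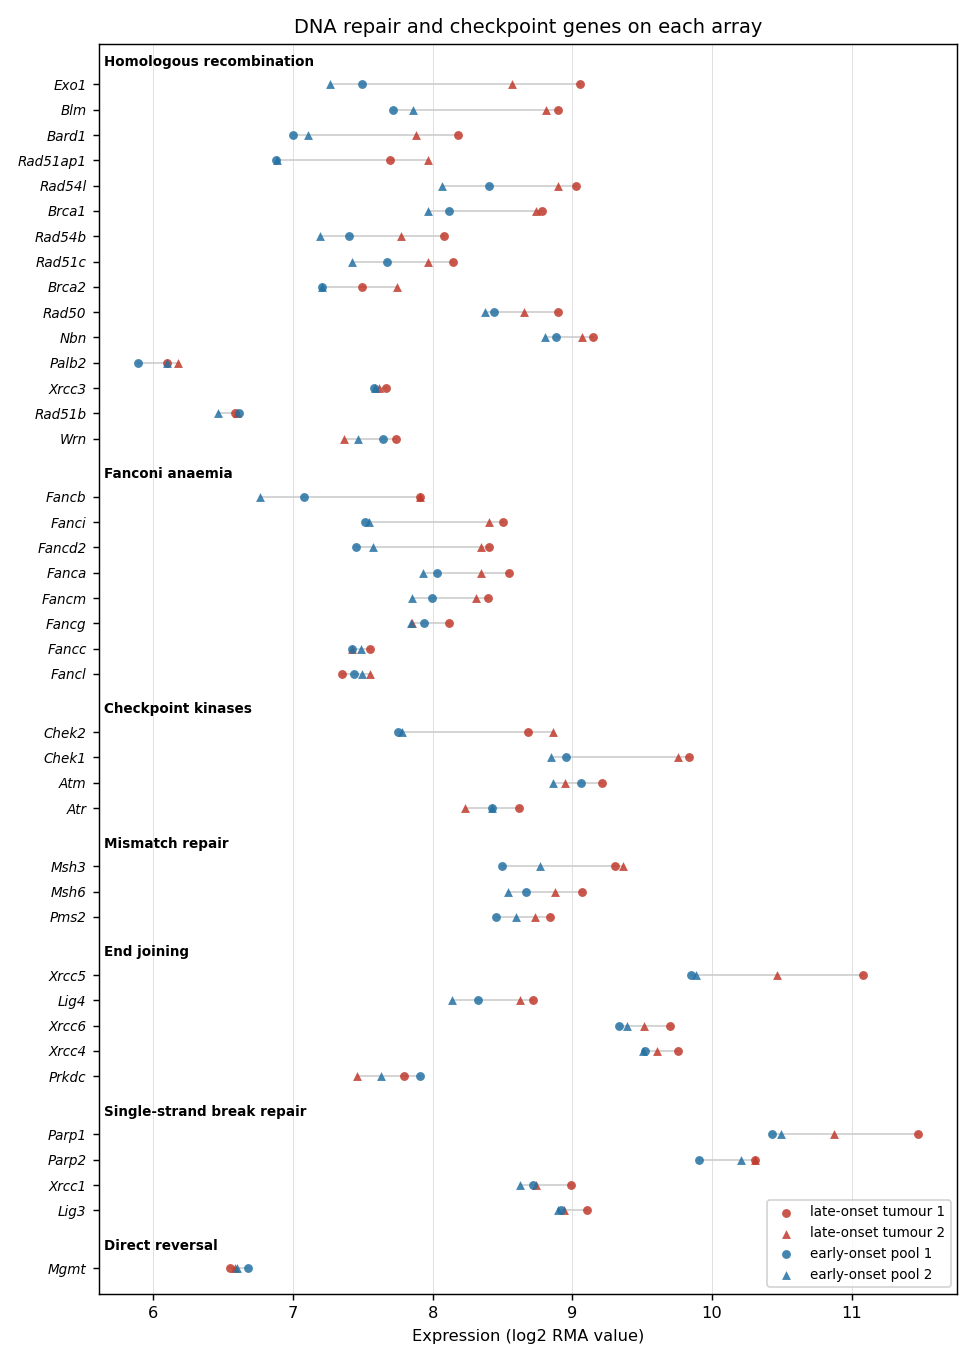
Expression of the 40 measured repair and checkpoint genes on each array, as log2 RMA values (horizontal axis), with genes grouped by role and ordered by fold change. Red circles and triangles are late-onset tumours 1 and 2, and blue circles and triangles are early-onset pools 1 and 2. For the top recombination, Fanconi, checkpoint, mismatch repair and end-joining genes the red points lie to the right of the blue, as for Exo1 at 9.06 and 8.57 against 7.49 and 7.27, whereas they intermingle for Wrn, Fancl, Atm and Prkdc and lie to the left for Mgmt.

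The promoters of the repair genes, called or not, were searched for letters that the E2F factors, which drive genes of the S phase, are known to bind. The letters were TTTGGCGC, TTTCCCGC, TTTGCCGC and TTTCGCGC on either strand, in the 250 bases before the start site in RefSeq (GRCm38.p6), with 1 promoter a gene. A promoter was found for 33 of the 40 genes. No entry was found for Rad54b, Rad50, Nbn, Wrn, Exo1, Fancd2 and Prkdc. The letters stood in 6 of the 33, or 18.2%, against 2.55% of 15613 promoters of tested genes. They were Bard1, Chek2 and Msh3 among the 11 called genes with a promoter, and Brca2, Fancg and Xrcc6 among the 22 uncalled ones. The 4 promoters below show the called genes and 1 uncalled gene with the same letters as Chek2, and capitals mark the E2F letters.
Bard1, chr1:71102973-71103222, minus strand: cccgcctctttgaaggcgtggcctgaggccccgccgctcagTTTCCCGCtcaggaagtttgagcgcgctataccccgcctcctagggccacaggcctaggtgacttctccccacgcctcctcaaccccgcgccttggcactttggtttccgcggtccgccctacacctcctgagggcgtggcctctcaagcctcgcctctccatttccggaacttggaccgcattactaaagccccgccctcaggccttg
Chek2, chr5:110839733-110839982, plus strand: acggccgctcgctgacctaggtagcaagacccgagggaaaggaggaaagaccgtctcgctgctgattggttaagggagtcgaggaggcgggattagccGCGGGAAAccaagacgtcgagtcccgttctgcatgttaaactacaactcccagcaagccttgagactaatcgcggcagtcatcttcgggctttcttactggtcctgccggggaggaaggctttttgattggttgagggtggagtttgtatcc
Msh3, chr13:92355004-92355253, minus strand: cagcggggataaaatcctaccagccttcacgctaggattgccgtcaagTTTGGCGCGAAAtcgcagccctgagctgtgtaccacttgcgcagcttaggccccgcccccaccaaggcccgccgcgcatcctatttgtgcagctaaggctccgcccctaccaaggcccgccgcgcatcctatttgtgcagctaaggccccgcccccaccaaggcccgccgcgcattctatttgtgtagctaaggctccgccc
Xrcc6, chr15:82016119-82016368, plus strand: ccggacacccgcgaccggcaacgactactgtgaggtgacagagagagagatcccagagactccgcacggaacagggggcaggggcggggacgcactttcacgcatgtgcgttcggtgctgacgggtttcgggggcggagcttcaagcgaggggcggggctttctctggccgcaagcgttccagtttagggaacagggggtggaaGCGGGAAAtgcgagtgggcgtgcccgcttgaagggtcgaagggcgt
In Msh3 the capitals hold 2 overlapping matches on opposite strands. The first letter of the match lay 209 bases before the start site in Bard1, 152 in Chek2 and 46 in Xrcc6. The CCAAT box (CCAAT, either strand) stood in 16 of 33 promoters, or 48.5%, against 35.5% of all, and the cell cycle element CHR (TTTGAA or TTCGAA, either strand) in 2 of 33, or 6.06%, against 15.1% of all. A match describes letters in this window and is no evidence of binding.

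Recombination genes that rose span the end resection, strand exchange and helicase steps. Exo1, a nuclease that resects DNA ends and also serves mismatch repair, stood at 9.06 and 8.57 log2 units in tumours 1 and 2, against 7.49 and 7.27 in pools 1 and 2. The groups lay far apart, and its log2 fold change of 1.43 (SE 0.19, adjusted p = 0.0113) was the largest of the 40 genes, a 2.70-fold higher level. Blm, the Bloom syndrome helicase that dissolves crossed recombination intermediates, stood at 8.90 and 8.81 in the tumours, against 7.72 and 7.86 in the pools. It rose by 1.07 (SE 0.11, adjusted p = 0.00608). The tumours differed from each other by 0.09, and Blm was the only called gene of the 14 that passed in each of the 16 other settings, with adjusted p up to 0.043 without pool 1.

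Brca1 and Bard1 encode partners in the ubiquitin ligase that steers breaks towards recombination. Brca1 stood at 8.78 and 8.74 in the tumours, against 8.12 and 7.97 in the pools, and rose by 0.72 (SE 0.11, adjusted p = 0.0142). Bard1 stood at 8.18 and 7.88 in the tumours, against 7.00 and 7.11 in the pools, and rose by 0.98 (SE 0.14, adjusted p = 0.0127). The groups did not overlap for either gene. Bard1 had 3 probe sets, with log2 fold changes of 0.98, 0.85 and 0.78. Rad51ap1, which stimulates strand exchange, stood at 7.69 and 7.96 in the tumours, against 6.88 in each pool, and rose by 0.95 (SE 0.13, adjusted p = 0.011). The pools were nearly identical and the tumours lay well above them. Without pool 1 or pool 2 the calls of Exo1 (adjusted p 0.0504 and 0.071), Brca1 (0.0612 and 0.101), Bard1 (0.0773 and 0.0675) and Rad51ap1 (0.0677 and 0.0724) were lost.

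The translocases Rad54l and Rad54b, which remodel DNA during strand exchange, rose as well. Rad54l stood at 9.03 and 8.90 in the tumours, against 8.41 and 8.07 in the pools, a difference of 0.72 (SE 0.15, adjusted p = 0.0328). Rad54b stood at 8.08 and 7.77 in the tumours, against 7.40 and 7.20 in the pools, a difference of 0.63 (SE 0.15, adjusted p = 0.0482). The groups were separate for each gene, but the spread within them was wider than for Blm. The Rad54l call was lost without tumour 1 (adjusted p 0.0838), tumour 2 (0.0626), pool 1 (0.0558) or pool 2 (0.149). The Rad54b call was lost without tumour 1 (0.104), pool 1 (0.123) or pool 2 (0.236) and with a variance trend (0.0506). With all probe sets tested, adjusted p was 0.0812 for Rad54l and 0.106 for Rad54b.

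The other 8 recombination genes did not pass. Rad51c, a paralogue that helps load the recombinase, came nearest: it stood at 8.14 and 7.97 in the tumours, against 7.67 and 7.42 in the pools (difference 0.51, 95% interval 0.17 to 0.85, adjusted p = 0.0653). Brca2, the loader of the recombinase, had 7.50 and 7.75 in the tumours, against 7.20 and 7.21 in the pools (0.41, adjusted p = 0.0854). Groups did not overlap for either gene. Rad50 and Nbn, subunits of the complex that senses breaks, were at 0.37 and 0.27, and Palb2, which bridges the BRCA proteins, at 0.14. Nbn had a second probe set at -0.10, so its probe sets disagreed in sign. Rad51b was at 0.05 and Xrcc3 at 0.06. Wrn, the Werner syndrome helicase of the same family as Blm, was at -0.01, with an interval from -0.41 to 0.39 and overlapping groups.

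**Figure D2:**
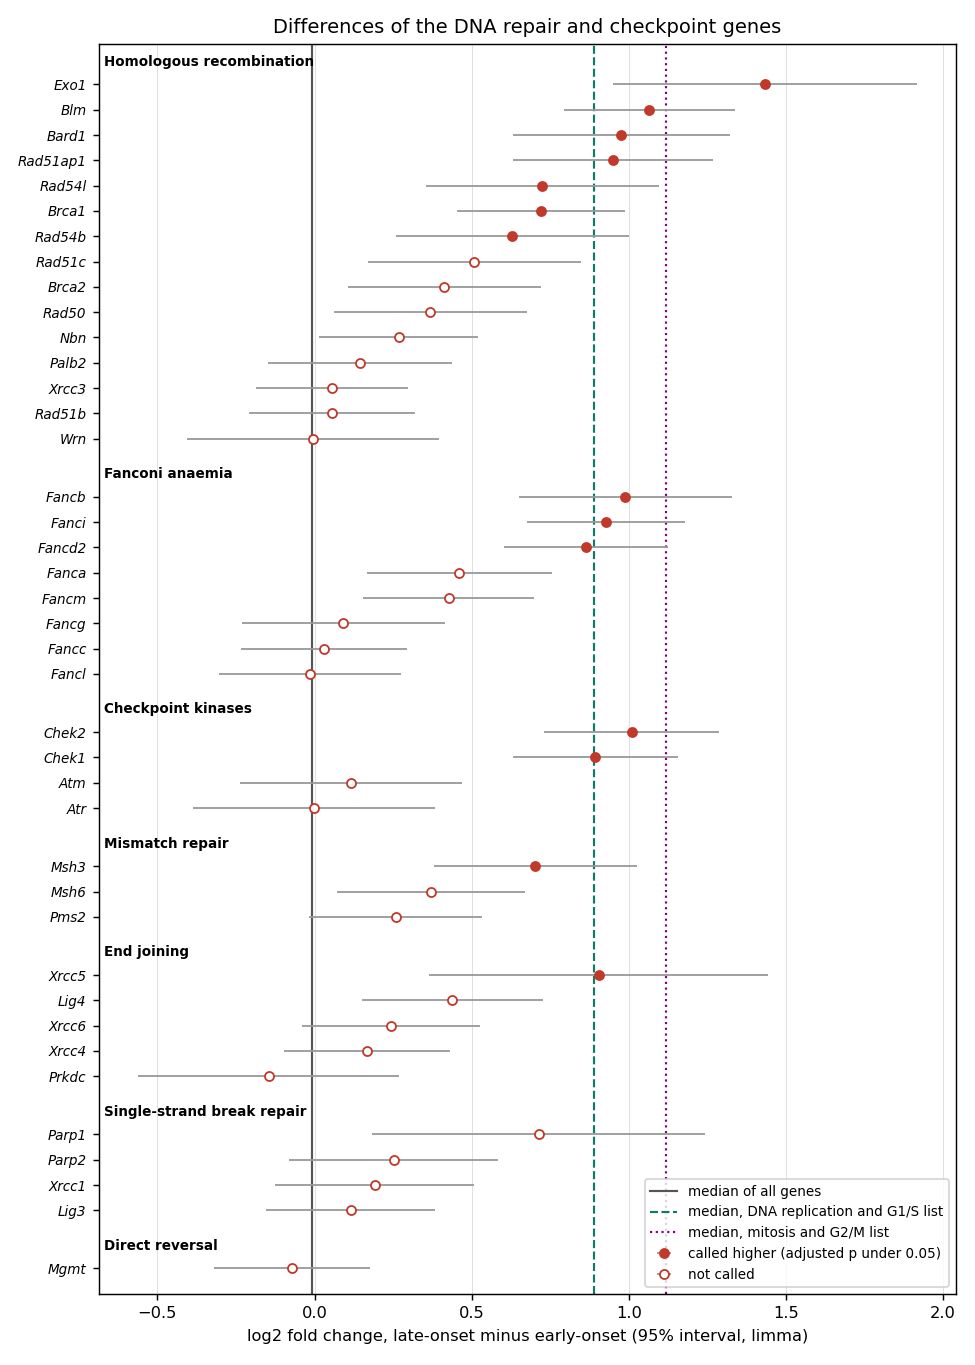
Log2 fold changes of the 40 genes, late-onset minus early-onset, with 95% intervals from limma (horizontal axis), grouped by role. Filled points are called higher, open points are not called, and the vertical lines mark the medians of all genes (-0.01), of the DNA replication list (0.89) and of the mitosis list (1.12). Called genes fill the upper rows of the recombination and Fanconi classes, and only Exo1 lies to the right of the mitosis median.

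In the Fanconi pathway the 3 genes that rose included the clamp itself. Fancd2 and Fanci encode the 2 proteins of the clamp that is ubiquitinated on crosslinked DNA. Fancd2 stood at 8.40 and 8.35 in the tumours, against 7.45 and 7.57 in the pools, and rose by 0.86 (SE 0.10, adjusted p = 0.0086). Fanci stood at 8.51 and 8.40 in the tumours, against 7.51 and 7.54 in the pools, and rose by 0.93 (SE 0.10, adjusted p = 0.00681). Within a group the arrays of each gene lay close together, and the gap between groups was far larger. Fancb, an X-linked subunit of the core complex that ubiquitinates the clamp, stood at 7.91 in each tumour, against 7.08 and 6.77 in the pools, and rose by 0.99 (SE 0.13, adjusted p = 0.0118). The call of Fancd2 was lost without pool 1 (adjusted p 0.0604), that of Fancb without pool 2 (0.0582), and that of Fanci without pool 1 (0.0508) or pool 2 (0.0503).

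Of the 5 Fanconi genes that did not pass, Fancm, a DNA translocase that recruits the core complex, had the largest moderated t. It stood at 8.40 and 8.31 in the tumours, against 8.00 and 7.85 in the pools (0.43, 95% interval 0.16 to 0.70, adjusted p = 0.0582). Fanca, a core subunit, had 8.54 and 8.34 in the tumours, against 8.03 and 7.93 in the pools (0.46, adjusted p = 0.0592). For these 2 genes the groups were separate. Fancg, Fancc and Fancl, further core complex members of which Fancl is the ligase, were at 0.09, 0.03 and -0.02 with overlapping groups. Their adjusted p-values ran from 0.698 to 0.953.

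Of the checkpoint kinases, the downstream pair rose. Chek1, which restrains the cycle when replication forks stall, stood at 9.84 and 9.75 in the tumours, against 8.96 and 8.84 in the pools, and rose by 0.89 (SE 0.10, adjusted p = 0.00804). Chek2, which relays signals of double-strand breaks, stood at 8.68 and 8.86 in the tumours, against 7.75 and 7.78 in the pools, and rose by 1.01 (SE 0.11, adjusted p = 0.00705). In each gene the tumours lay close together and clear of the pools. The call of Chek1 was lost without pool 2 (adjusted p 0.0602), and that of Chek2 without pool 1 (0.0505) or pool 2 (0.0502).

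The kinases upstream of them did not pass. Atm, which activates Chek2, stood at 9.21 and 8.94 in the tumours, against 9.06 and 8.86 in the pools (0.12, 95% interval -0.24 to 0.47, adjusted p = 0.648). Atr, which activates Chek1, stood at 8.62 and 8.23 in the tumours, against 8.42 in each pool (0.00, 95% interval -0.39 to 0.38, adjusted p = 0.997). Groups overlapped for each gene, and for Atr the pools lay between the tumours. Whether the downstream kinases differed from the upstream ones in their response was not tested.

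In mismatch repair, Msh3 rose. It encodes the partner that recognises longer insertion loops, stood at 9.30 and 9.36 in the tumours, against 8.49 and 8.77 in the pools, and differed by 0.70 (SE 0.13, adjusted p = 0.0248). Its call was lost without tumour 1 (adjusted p 0.0525), tumour 2 (0.0709), pool 1 (0.117) or pool 2 (0.0587), and with all probe sets tested (0.0667). Msh6, the partner for single mismatches, stood at 9.07 and 8.88 in the tumours, against 8.67 and 8.54 in the pools (0.37, 95% interval 0.07 to 0.67, adjusted p = 0.105). Pms2, part of the nuclease that cuts the strand with the error, was at 0.26 (95% interval -0.02 to 0.53, adjusted p = 0.188). For all 3 genes the late-onset arrays lay above the early-onset arrays.

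Of 5 end-joining genes, 1 rose. Xrcc5, which encodes the larger Ku subunit that caps broken ends, stood at 11.08 in tumour 1 and 10.46 in tumour 2, against 9.85 and 9.89 in the pools. It rose by 0.90 (SE 0.21, adjusted p = 0.0494), and the tumours lay apart by 0.62. Its value was 0.59 without tumour 1 (adjusted p 0.0439) and 1.21 without tumour 2 (0.00995), and the call was lost without pool 1 (0.19) or pool 2 (0.193), after quantile normalization (0.0669) and after cyclic loess (0.0692). Xrcc6, the other Ku subunit, stood at 9.70 and 9.51 in the tumours, against 9.33 and 9.39 in the pools (0.24, 95% interval -0.04 to 0.53, adjusted p = 0.221). Lig4, the ligase that seals the ends, stood at 8.72 and 8.62 in the tumours, against 8.32 and 8.14 in the pools (0.44, 95% interval 0.15 to 0.73, adjusted p = 0.0625). The groups did not overlap for either gene. Xrcc4, the scaffold of that ligase, was at 0.17. Prkdc, the kinase that Ku recruits, was the lowest of the 40 genes at -0.15, with an interval from -0.56 to 0.27 and overlapping groups.

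None of the 4 single-strand break repair genes passed in limma, and 1 had an unadjusted p under 0.05. That gene was Parp1, the poly(ADP-ribose) polymerase that detects nicks, which stood at 11.48 in tumour 1 and 10.87 in tumour 2, against 10.43 and 10.50 in the pools (0.71, 95% interval 0.18 to 1.24, adjusted p = 0.0856). The tumours differed by 0.60, and Parp1 was at 0.41 without tumour 1 and 1.02 without tumour 2. Parp2, a related polymerase, was at 0.25, Xrcc1, the scaffold of nick repair, at 0.19, and its ligase partner Lig3 at 0.12. With 1 array left out, Parp2 ranged from 0.10 to 0.40, Xrcc1 from 0.066 to 0.32 and Lig3 from 0.036 to 0.20, and none of the 3 was called. Mgmt, which removes alkyl groups from guanine, stood at 6.55 and 6.58 in the tumours, against 6.68 and 6.60 in the pools (-0.07, 95% interval -0.32 to 0.18, adjusted p = 0.691). Its arrays did not overlap, but the gap between groups was smaller than the distance between the pools.

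Set side by side, the classes had unequal shares of called genes. In recombination 7 of 15 genes rose, in the Fanconi pathway 3 of 8, among checkpoint kinases 2 of 4, in mismatch repair 1 of 3 and in end joining 1 of 5. The median log2 fold changes were 0.51, 0.44, 0.50, 0.37 and 0.24 in that order, and 0.22 in single-strand break repair. Recombination and Fanconi genes together counted 10 of 23 called higher at a median of 0.46. Of all genes, 6.59% were called higher. The classes are small, and no difference between them was tested.

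Repair genes outside the set of 41 were described from 107 further genes, of which 97 were measured. Of these, 25 rose and 2 fell, at a median of 0.24. The shares were 25.8% higher and 2.06% lower, against 6.59% and 8.12% of all genes. In recombination and the Fanconi pathway 8 of 28 rose, among them Ube2t, the conjugating enzyme for the Fanconi clamp (1.08, adjusted p = 0.00671), the Holliday junction nuclease gene Gen1 (0.98, adjusted p = 0.0106) and the chromatin helicase gene Hells (0.97, adjusted p = 0.0179). That count was 5 without tumour 2, 2 without pool 1 and 1 without pool 2. In damage signalling 10 of 18 rose and 1 fell. Clspn, the adaptor that lets ATR activate CHEK1 (1.28, adjusted p = 0.00618), the phosphatase gene Cdc25c (1.09, adjusted p = 0.0464) and the fork protection gene Tipin (1.01, adjusted p = 0.00795) rose most, and Hus1, a subunit of the checkpoint clamp, fell, with 8.64 and 8.49 in the tumours against 9.17 and 9.20 in the pools (-0.62, adjusted p = 0.0204). The 10 became 5 without tumour 2, 3 without pool 1 and 4 without pool 2, and Hus1, named after its value was seen, was not called in those 3 fits. Ube2t and Clspn passed whichever array was left out, whereas other calls depended on single arrays. Gen1 was lost without pool 1 (adjusted p 0.0582) or pool 2 (0.0741), Hells without pool 2 (0.0678) and Tipin without pool 1 (0.0541). Cdc25c was lost without tumour 1 (0.094), tumour 2 (0.118) or pool 1 (0.0742), and also with array weights, a replicate block and all probe sets tested.

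Few further genes of mismatch repair and end joining passed. Of 5 measured mismatch repair genes 0 passed in limma and 1 had an unadjusted p under 0.05, the MutL gene Mlh3 (-0.36, adjusted p = 0.0908). Of 8 end-joining genes 1 rose, or 12.5% against 6.59% of all genes. That gene was Polq, the polymerase of the pathway that joins ends through short homologies. It stood at 8.28 and 8.17 in the tumours, against 7.67 and 7.27 in the pools (0.75, adjusted p = 0.0371). The Polq call was lost without tumour 1 (adjusted p 0.0928), tumour 2 (0.0757) or pool 2 (0.145).

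**Figure D3:**
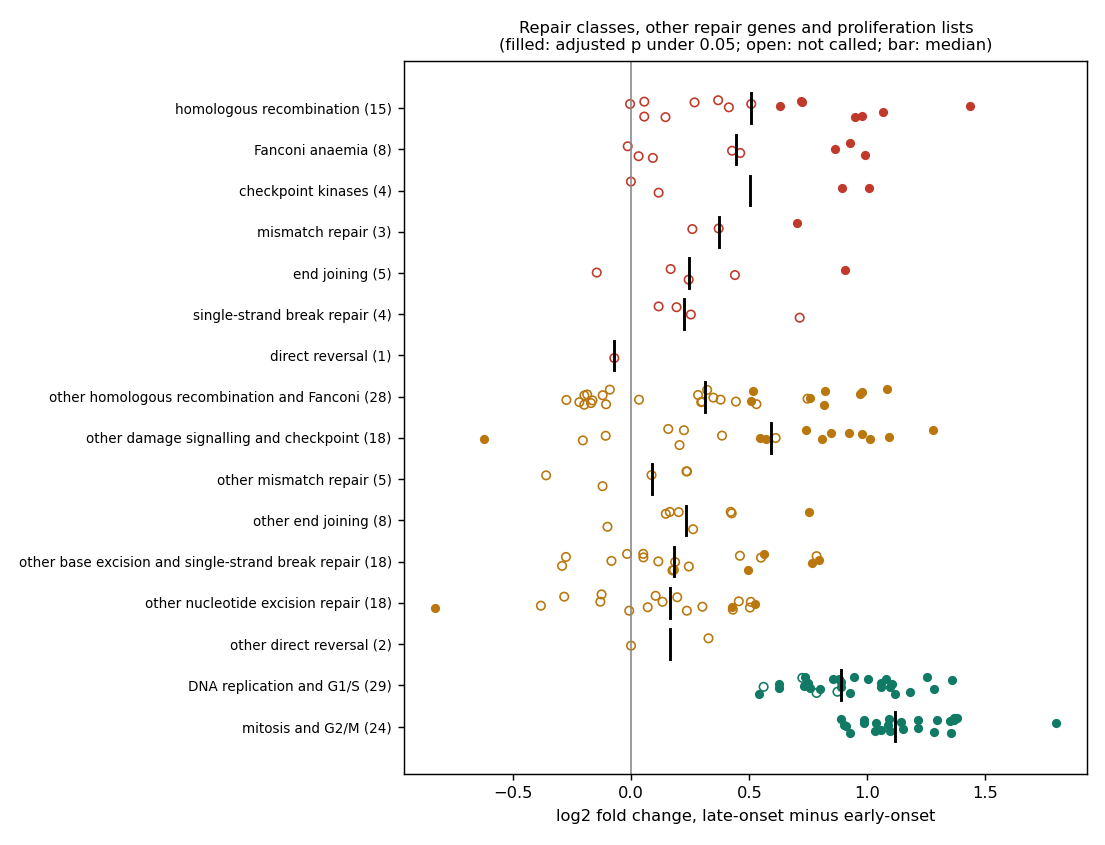
Log2 fold changes, late-onset minus early-onset (horizontal axis), of the repair classes (red), further repair genes (brown) and proliferation genes (green). Filled points passed an adjusted p of 0.05, open points did not, black bars are medians, and brackets give the number of measured genes. Recombination genes spread from -0.01 to 1.43, while all 29 replication genes lie between 0.54 and 1.36.

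Proliferation genes were higher in the same samples. The list for the replication machinery and entry into S phase had 29 measured genes, of which 25 rose at a median of 0.89, led by the histone chaperone gene Chaf1b (1.36), the polymerase gene Pole2 (1.28) and the helicase gene Mcm3 (1.25). In the list for mitosis all 24 measured genes rose, at a median of 1.12, led by Nek2 (1.80), Nusap1 (1.38) and Aurka (1.37). The division marker Mki67 stood at 11.36 and 11.14 in the tumours, against 10.16 and 10.28 in the pools. Signals of the replication list summed to 33641 and 31500 linear units in the tumours, against 18423 and 16040 in the pools. Of the 40 repair genes, 9 had a log2 fold change above the replication median and 1, Exo1, above the mitosis median. Fewer genes of the replication list were called higher without pool 1 or pool 2, and fewer of the mitosis list without pool 1. The calls of Mki67 and Mcm3 were lost without pool 1 or pool 2. Mcm3, on chromosome 1, stood 0.61 log2 units higher in tumour 1 than in tumour 2 and was at 0.95 without tumour 1. The part of proliferation in the repair gene differences was not tested.

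Some markers of other cells were called as well, against 8.12% of all genes called lower and 6.59% called higher. The share called lower was 57.1% of astrocyte and of neuron markers and 25% of oligodendrocyte progenitor markers. It was 14.3%, or 1 gene, in the endothelial and pericyte list and in the lymphocyte list. Of 7 astrocyte markers 4 fell, led by Slc4a4 (-2.28) and Slc1a2 (-1.93). Of 7 neuron markers 4 fell and 1 rose, with the synaptic gene Snap25 at -1.85 and the tubulin gene Tubb3 at 1.86. Of 8 oligodendrocyte progenitor markers 2 fell, Cspg5 (-0.74) and Pdgfra (-0.45), and Gpr17 was at -0.66 (adjusted p = 0.051). Of 7 endothelial and pericyte markers 1 fell, Rgs5, and those with the largest differences, Kdr (-0.81) and Pecam1 (-0.71), did not pass. Kdr was at -0.27 without tumour 1 and -1.35 without tumour 2 (adjusted p 0.0399), and Pecam1 at -0.15 without tumour 1, -1.27 without tumour 2, -0.12 without pool 1 and -1.30 without pool 2. Lymphocyte markers stood between 3.68 and 5.92 in the tumours and between 3.73 and 6.11 in the pools, with 1 of 7 called lower, Cd4 (-0.44). Pdgfra and Rgs5 were named after their values were seen. The call of Cd4 was lost whichever array was left out (adjusted p 0.0824 to 0.21) and after quantile normalization, cyclic loess and median subtraction. Without pool 1 or pool 2 the calls of Cspg5 (0.077 and 0.117), Pdgfra and Rgs5 were lost, Rgs5 also without tumour 1, and that of Snap25 was lost without pool 2 (0.0568). The part of these cells in the repair gene differences was not tested.

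The tumours differed from each other on chromosome 1. Over 578 genes placed there and above the median level, tumour 1 stood 0.40 log2 units above tumour 2 at the median, whereas the other chromosomes had medians between -0.06 and -0.01. Against the mean of the pools, chromosome 1 genes were at 0.43 in tumour 1 and 0.03 in tumour 2. Over those 578 genes the median log2 fold change, late-onset minus early-onset, was 0.24, against 0.10 or less on each other chromosome. Of the repair genes, 4 lie on chromosome 1, Bard1, Exo1, Xrcc5 and Parp1, and 3 of them rose. Of all genes on any chromosome 6.59% were called higher, and the share on chromosome 1 alone was not counted. Tumour 1 minus tumour 2 was 0.30 for Bard1, 0.49 for Exo1, 0.62 for Xrcc5 and 0.60 for Parp1. Without tumour 1 the log2 fold changes were 0.82 for Bard1 (adjusted p 0.0233), 1.19 for Exo1 (0.0149), 0.59 for Xrcc5 and 0.41 for Parp1. On other chromosomes 11 of 36 repair genes rose, at a median of 0.32 over the 36.

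**Figure D4:**
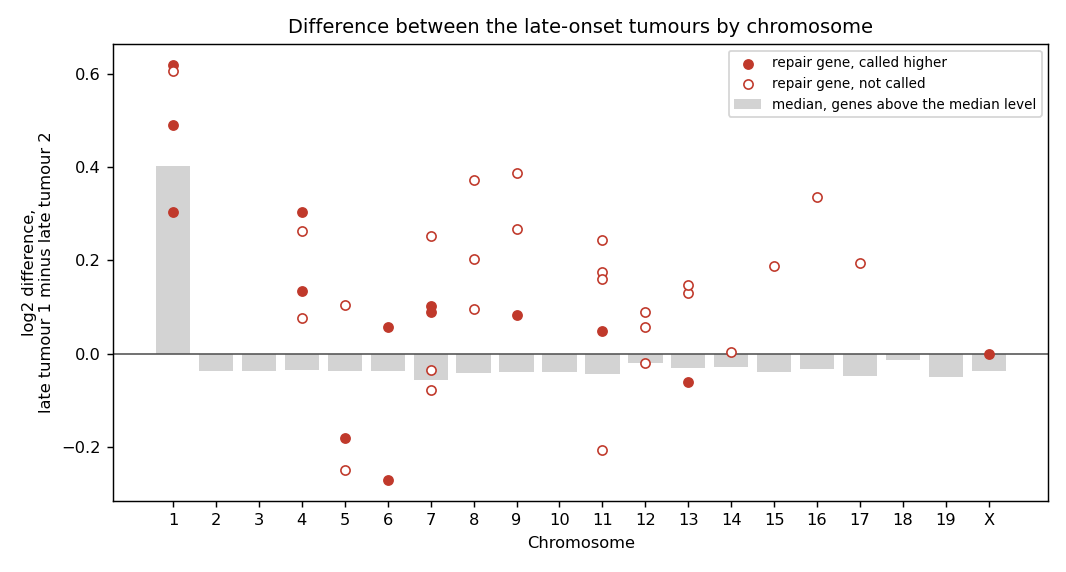
Log2 difference between the late-onset tumours, tumour 1 minus tumour 2 (vertical axis), by chromosome (horizontal axis). Grey bars are medians over genes above the median level, filled points are repair genes called higher, and open points are repair genes not called. The bar of chromosome 1 stands at 0.40 and the others between -0.06 and -0.01, and 3 of the 4 repair genes on chromosome 1 lie above its bar.

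Across all 40 genes the spread between arrays had its own direction: 31 were higher in tumour 1 than in tumour 2. Of all 19937 genes, 9854 were higher in tumour 1. The median of tumour 1 minus tumour 2 was 0.10 over the 36 genes off chromosome 1. Of the 14 called genes, 10 passed in every setting tried that kept all 4 arrays and left the adjusted p threshold unchanged. The exceptions were Rad54l, Rad54b, Msh3 and Xrcc5. Leaving out at least 1 pool ended 13 of the 14 calls, and leaving out at least 1 tumour ended 3, those of Rad54l, Rad54b and Msh3. None of the 14 changed sign in any setting.

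**Figure D5:**
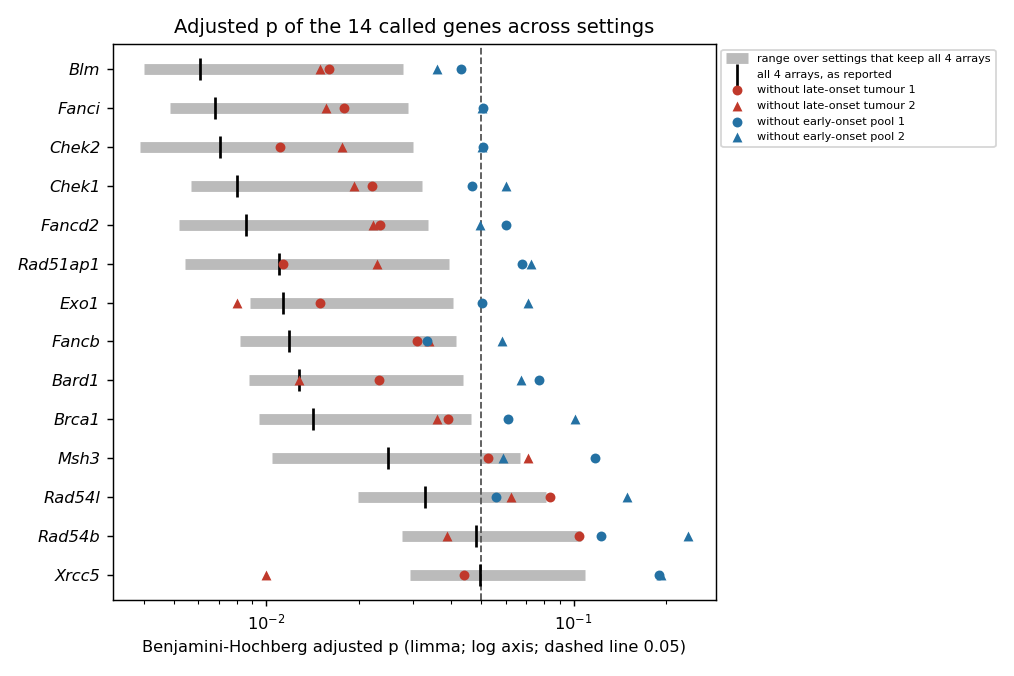
Benjamini-Hochberg adjusted p from limma (horizontal log axis) for the 14 called genes, ordered by the value with all 4 arrays (black tick). Grey bars span the settings that keep all 4 arrays, red symbols leave out a late-onset tumour, blue symbols leave out an early-onset pool, and the dashed line is 0.05. At least 1 blue symbol lies right of the line for 13 of the 14 genes, and for Blm each symbol lies left of it.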

How the data were processed

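The deposited values are log2 probe set summaries from 4 Affymetrix arrays. RMA and affy 3.4.2 are named in the submitters' processing notes, without parameters; RMA hides a change shared by most genes and understates folds of dim genes. The 34760 probe sets ran from 2.17 to 14.8. Of them, 21640 had a single gene in the platform annotation, 1321 several and 11799 none; the single-gene ones gave 19937 genes. Array number limits the precision.

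Late-onset minus early-onset was fitted with limma 3.58.1 in R 4.3.3 (lmFit, eBayes) over all genes with no filter, with Benjamini-Hochberg adjustment and 2 residual and 3.27 prior degrees of freedom. Every adjusted p is from limma. The procedure was tested on simulated data. Alternatives changed variance moderation, level filters, scaling, probe set choice, array weights, a replicate block and the threshold, or left out each array. All 40 measured members lay above the lower quartile of level.

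Named were all called members, the uncalled member with the largest moderated t per class, and, of other lists, up to 3 called genes (markers: 2) by fold change; further members are named with their values. Members and lists were chosen with earlier results of these data known. Chromosomes come from RefSeq (GRCm38.p6), matched for 21553 probe sets.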

Additional observations from a re-analysis of the deposited data

How the results depend on the processing

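The count of 14 repair genes called higher stayed between 10 and 16 in 11 of 12 settings that kept all arrays and the 0.05 threshold. The 10 came with all probe sets tested, of which 2.14% were called higher. The 16 came with genes above the median level, where 34 repair genes were tested and 15.1% of the genes were called higher. After each array's median was subtracted the count became 22, with 14.2% of all genes called higher. That scaling moved the median of all genes by 0.16, and its calls split into 2839 higher and 1210 lower, against 1313 and 1618. The count was 5 at a threshold of 0.01 and 20 at 0.10, and 2 to 13 with 1 array left out. With 1 array of a group left out, the lone array is assumed to vary like the other group. No repair gene was called lower in any setting. The 2931 genes called in all became 1681 of 34760 with all probe sets tested, 824 at a threshold of 0.01, 4539 at 0.10, and 850 to 2577 with 1 array left out. With the replicate number as a block, 1833 genes and 13 repair genes were called, and Xrcc5 was lost (adjusted p 0.0752). Same-numbered samples did not deviate together (r = -0.04 over genes). With 2 samples a group this cannot exclude a pairing by number. Signs turned only for uncalled genes near 0. Quantile normalization gave Wrn at 0.13, Fancl at 0.14, Atr at 0.0148 and Mgmt at 0.107, and cyclic loess gave Wrn at 0.0340 and Fancl at 0.0288. Median subtraction gave Wrn at 0.15, Fancl at 0.14, Atr at 0.16, Prkdc at 0.0133 and Mgmt at 0.0876. With 1 array left out, values spanned 0 for Wrn (-0.191 to 0.181), Fancl (-0.118 to 0.0878), Fancg (-0.0404 to 0.223), Fancc (-0.0335 to 0.0956), Atm (-0.0182 to 0.25), Atr (-0.195 to 0.192), Prkdc (-0.314 to 0.0215) and Rad51b (-0.0184 to 0.128). The cause was not tested. The stricter and looser thresholds and the larger number of tests with all probe sets change counts by construction.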

Other observations

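Of 18 further genes of base excision and single-strand break repair 4 rose and 0 fell, or 22.2% higher against 6.59% of all genes, at a median log2 fold change of 0.18. The flap nuclease gene Fen1, which also matures lagging strands, stood at 9.13 and 9.14 in late-onset tumours, against 8.44 and 8.23 in early-onset pools (0.80, adjusted p = 0.0139). The glycosylase gene Neil3 was at 8.96 and 8.78 in the tumours, against 8.04 and 8.16 in the pools (0.76, adjusted p = 0.0152), and the abasic site nuclease gene Apex1 at 11.11 and 11.10, against 10.59 and 10.50 (0.56, adjusted p = 0.0222). The call of Fen1 was lost without pool 2 (adjusted p 0.0854) and that of Neil3 without pool 1 (0.0942) or pool 2 (0.0769). Apex1 was lost without tumour 1 (0.0528), tumour 2 (0.0575), pool 1 (0.102) or pool 2 (0.148), and with all probe sets tested. The count of 4 became 3 without tumour 1, 2 without tumour 2, 1 without pool 1 and 0 without pool 2.

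Nucleotide excision repair, which removes bulky lesions such as those of ultraviolet light, had 2 of 18 genes called higher and 1 called lower, at a median of 0.16. These shares of 11.1% and 5.56% lie near the 6.59% and 8.12% of all genes. Ddb2, a damage sensor and p53 target, fell, with 7.01 and 6.86 in the tumours against 7.60 and 7.93 in the pools (-0.83, adjusted p = 0.0229). The transcription factor helicase gene Ercc3 (0.53, adjusted p = 0.0294) and its complex partner Gtf2h1 (0.43, adjusted p = 0.0435) rose. With all 4 arrays kept, the calls of Ddb2, Ercc3 and Gtf2h1 were lost with all probe sets tested and with a replicate block. That of Gtf2h1 was also lost after quantile normalization and after cyclic loess. The Ddb2 call was lost without tumour 2 (adjusted p 0.0672) or pool 2 (0.11), Ercc3 was called without tumour 1 only among the 4 fits that left out 1 array, and Gtf2h1 in none of them. Of 2 other direct reversal genes 0 passed in limma, with 0 at an unadjusted p under 0.05. Alkbh3 was at 0.33 (adjusted p = 0.262).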
